A study of Mus musculus with 13 samples.

Results

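The genes described here are the ligands, receptors, R-spondins and core intracellular and target genes of Wnt signalling in the mandibular condylar cartilage of aged and young mice. Members were taken from the deposited gene table by symbol: every Wnt ligand and Frizzled receptor, R-spondins 1 to 4, Lgr4 to Lgr6, and Lrp5, Lrp6, Ror1, Ror2, Ryk, Axin1, Axin2, Lef1, Tcf7, Nkd1, Nkd2, Rnf43, Znrf3 and Ctnnb1. They came to 50 of the 18748 genes of the table, and 42 of them had enough reads to be tested. Messenger RNA was sequenced in bulk from the cartilage on the head of the jaw bone, where it meets the skull, in 6 libraries of aged mice (18 months old) and 7 of young mice (2 months old). The labels give no strain, sex, genotype or treatment, and they number the libraries without saying whether each came from 1 mouse, so p-values measure the spread between libraries, part of which may be technical.

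Wnt proteins are secreted ligands that bind Frizzled receptors on the cell surface. In the canonical branch the ligand also engages the co-receptors Lrp5 or Lrp6, and beta-catenin (Ctnnb1) is spared from a destruction complex built on Axin and acts in the nucleus with the transcription factors Tcf7 and Lef1. Other branches run through Ror1, Ror2 and Ryk without beta-catenin and steer cell shape and polarity. R-spondins bind Lgr4, Lgr5 or Lgr6 and keep the ubiquitin ligases Rnf43 and Znrf3 from clearing Frizzleds off the membrane. In the skeleton the pathway is known for its part in joint formation, in chondrocyte maturation and in bone formation.

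Aged cartilage had lower transcript levels of several ligands and receptors and of Tcf7 and Lef1, nuclear partners of beta-catenin, while a smaller group that includes Wnt10a, Wnt9a, Rspo2 and Lgr6 was higher. Of the 42 tested members, 8 rose and 15 fell in aged cartilage in edgeR's quasi-likelihood test (adjusted p under 0.05), and 19 were not called. The 23 calls are 54.8% of the tested members, against a background of 46.2% of all 14067 tested genes. By direction the members' shares were 19.0% higher and 35.7% lower, against backgrounds of 24.7% and 21.6%. The median log2 fold change was −0.23 over the tested members and 0.014 over all tested genes, and the differences between these shares and medians were not tested. For 12 members no aged library reached into the young range (28.6%, background 19.2%); 11 of them were lower in aged cartilage (background 10.9%) and 1, Rnf43, was higher (background 8.28%). Rnf43 passed the filter on low counts through the aged libraries only, so its place among the higher members is no independent sign of direction. The same holds for Fzd10 among the lower members, for which the young libraries alone sufficed and the aged ones did not. A call with a change of at least 2-fold was made for 8 members, 3 of them higher (19.0%, background 11.6%).

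**Figure D1:**
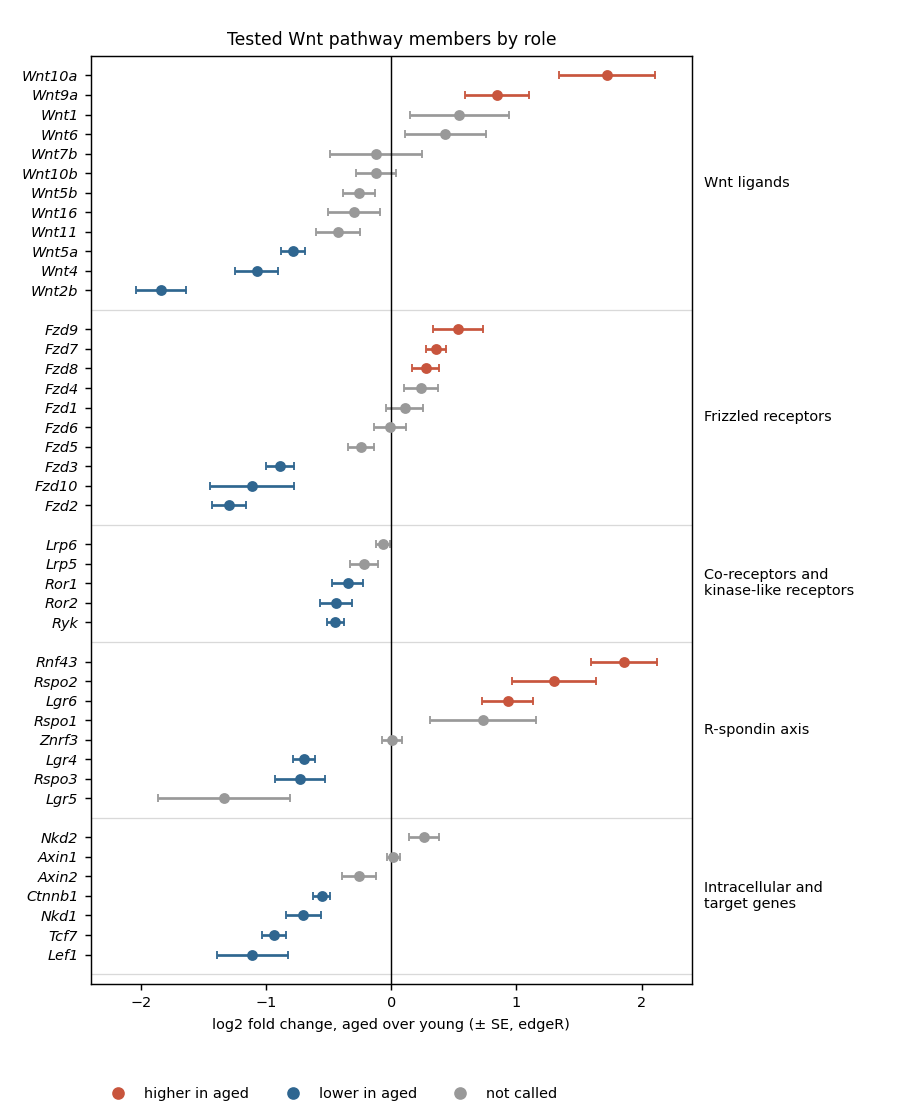
Log2 fold change of each of the 42 tested members, aged over young, with its SE, grouped by role (x axis: log2 fold change; rows: genes). Red points are the 8 members called higher in aged cartilage, blue points the 15 called lower and grey points the 19 not called; no co-receptor or intracellular gene was called higher with TMM, while Lrp6, Axin1 and Nkd2 were with library sizes alone.

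The libraries held between 16356839 and 17876681 expected counts in aged mice and between 17531694 and 18203443 in young mice. Summed cartilage markers were abundant at both ages, but most single ones were lower in aged libraries. Cnmd and Matn3 averaged only 0.587 and 1.46 CPM in aged libraries. The 10 chondrocyte markers summed to 12615 to 27289 CPM in the aged libraries and 30136 to 45880.4 CPM in the young ones. Most of the difference between these sums lies in Col2a1, which alone averaged 6836 CPM in aged and 25340 CPM in young libraries. Of the 10 markers 7 were lower and 1, Comp, higher in aged cartilage. Cnmd, Col9a1 and Matn3 were 42.2-fold, 33.4-fold and 18.6-fold lower in aged libraries, while Acan and Sox9 were not called. Markers of other cells moved with age as well. Of 14 erythroid markers 13 rose, with sums of 981 to 2597 CPM in aged and 310.3 to 559.8 CPM in young libraries, 11 of 13 neutrophil markers rose (1242 to 6130.1 CPM against 618 to 1961 CPM) and 16 of 18 skeletal muscle markers rose (5842 to 21141 CPM against 704 to 6894 CPM). In aged replicates 2, 3 and 5 the muscle sum was above the chondrocyte sum (18386, 21141 and 17513 CPM of muscle markers beside 13945, 16258 and 15870.4 CPM of chondrocyte markers), and in no young library was it so. The muscle sum covers 18 genes and the chondrocyte sum 10. Of the bone-forming lineage (osteoblasts and osteocytes) 8 of 10 markers fell (9041 to 15369 CPM against 14000.4 to 18076 CPM) and osteoclast markers likewise in 7 of 8 (2569 to 4576 CPM against 6392 to 8159.7 CPM). In smaller lists 3 of 4 tested adipocyte markers and 3 of 6 Schwann cell markers rose, 2 of 12 B cell markers fell, and the T cell (1 higher, 1 lower of 5), endothelial (2 and 3 of 8) and synovial and fibrous tissue lists (2 and 2 of 8) were mixed. No marker in the table was at 0 in all libraries. In bulk RNA fewer cells of a type cannot be told apart from less RNA per cell.

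The balance of directions depends on how libraries were scaled, both among the members and over all tested genes. With library sizes alone, which put the median change of the whole tested table at 0.244 in place of 0.014 (log2), 13 members rose and 12 fell. With TMM 8 rose and 15 fell, and on log2(FPKM + 1) with limma 12 rose and 14 fell. Of all 14067 tested genes 7034 rose and 1253 fell with library sizes alone. With TMM 3471 rose and 3033 fell, and on log2(FPKM + 1) 6227 rose and 1369 fell. With library sizes alone Nkd2, Lrp6, Fzd4, Znrf3 and Axin1 were called higher as well, and the calls of Ror1, Ror2 and Rspo3 were lost. No called member changed direction under any scaling. With the erythroid and neutrophil marker score of each library as a covariate, 4 members were called higher and 4 lower, and 6 of the 23 calls remained (Fzd2, Tcf7, Lef1, Lgr6, Fzd7 and Wnt10a). With the skeletal muscle score 3 were called higher and 14 lower, and 14 of the 23 remained; the calls of Lef1, Lgr6, Wnt10a, Fzd7, Fzd8, Fzd9, Ror1, Ror2 and Rspo3 were lost. Over all tested genes 1310 were called higher and 1093 lower with the erythroid and neutrophil score, and 1873 and 1658 with the muscle score. Fzd2 and Tcf7 were called in both of these fits. Since the marker sums themselves differ between the ages, age and these scores cannot be told apart in full.

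Among the Wnt ligands, 2 rose and 3 fell of 12 tested (41.7% called, near the background of 46.2%). Wnt5b, a ligand known from prehypertrophic chondrocytes, and Wnt10b, which favours bone formation in mice, stood far above the other ligands per transcript length: Wnt5b was at 31.6 ± 6.24 FPKM in aged and 32.5 ± 3.45 FPKM in young libraries and Wnt10b at 29.5 ± 8.22 FPKM and 28.3 ± 2.65 FPKM (SD, n = 6 and 7). For each of them the means of the ages lay closer together than 1 SD of the aged libraries. Wnt4 followed them in young cartilage at 8.71 FPKM and stood beside Wnt9a in aged cartilage, at 4.8 FPKM for Wnt4 and 4.7 for Wnt9a. FPKM compares genes within a library; comparisons between ages below use CPM (counts scaled to equal library size, TMM-normalised) and the edgeR fit.

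Wnt2b (gene ID 22414), a canonical ligand, had the largest fall of all members. It was at 0.763 to 1.44 CPM (median 1.07) in the 6 aged libraries and 2.77 to 5.26 CPM (median 3.62) in the 7 young ones, with −1.84 ± 0.20 as its log2 fold change (SE; edgeR adjusted p = 8.14e-06). The ages did not overlap for it, although its level was low at both. Wnt4 (gene ID 22417), a ligand known from developing joints, was at 9.45 to 22.3 CPM (median 13.3) in aged and 27.9 to 36.2 CPM (median 32.7) in young libraries, with −1.08 ± 0.17 as its log2 fold change (SE; edgeR adjusted p = 0.000235). Aged replicates 2 and 3 lay highest of their age for Wnt4, still below every young library. Wnt5a (gene ID 22418), the main ligand of the Ror2 branch, also fell without overlap. It was at 10.1 to 14.7 CPM (median 11.6) in aged and 16.9 to 22.6 CPM (median 21) in young libraries, with −0.79 ± 0.098 as its log2 fold change (SE; edgeR adjusted p = 2.56e-05).

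The ligands that rose did so with overlap or through an uneven set of aged libraries. Wnt10a (gene ID 22409), known in humans for its part in tooth and skin appendage development, was at 0.832 to 5.49 CPM (median 3.05) in aged and 0.506 to 1.4 CPM (median 0.76) in young libraries, with 1.73 ± 0.38 as its log2 fold change (SE; edgeR adjusted p = 0.00236). Aged replicate 4 lay within the young range, and the other 5 aged libraries lay above it. Wnt9a (gene ID 216795), a ligand of synovial joint formation in mice, was at 9.06 to 27.4 CPM (median 10.2) in aged and 4.87 to 9.33 CPM (median 7.11) in young libraries, with 0.85 ± 0.26 as its log2 fold change (SE; edgeR adjusted p = 0.0160). Its highest value belongs to aged replicate 6, and without that library the log2 fold change was 0.48 (adjusted p = 0.0179). In aged replicate 6 the 8 synovial and fibrous tissue markers also summed to their highest value, 1381 CPM, where the other aged libraries ranged from 357 to 778 CPM. The part of such tissue in the Wnt9a value of that library was not tested.

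The other 7 tested ligands were not called. Wnt5b was at 37.9 to 72.5 CPM (median 64.2) in aged and 63.4 to 86.4 CPM (median 70.5) in young libraries (log2 fold change −0.26 ± 0.13, SE, adjusted p = 0.119). The fold change of Wnt10b was −0.12 ± 0.16 (SE) on the log2 scale, that of Wnt16, a ligand that strengthens cortical bone in mice, −0.30 ± 0.21, and that of Wnt7b −0.12 ± 0.37. Wnt11 stood at −0.43 ± 0.18 (adjusted p = 0.0651), and at −0.62 without aged replicate 6 (adjusted p = 0.00291). Wnt1 and Wnt6 had log2 fold changes of 0.54 ± 0.40 and 0.43 ± 0.32 (SE) at levels of a few CPM.

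Too few reads were counted for a test of 7 ligands. Wnt8b had no count in any library, Wnt8a at most 1, and Wnt2 and Wnt3a at most 2, found in aged libraries only. Wnt3 reached 11 counts and Wnt9b 8 in a library. Wnt7a had 27 counts in aged replicate 1 and none in the other 12 libraries. By gene order in a RefSeq table of build GRCm38.p6, 4 pairs of ligand genes are neighbours. The neighbours differed in level or in call in 3 of these pairs: Wnt10b stood at 29.5 FPKM and its neighbour Wnt1 at 2.29 FPKM in aged libraries (28.3 and 1.35 FPKM in young ones), and Wnt9a was called higher while its neighbour Wnt3a was too low to be tested. In the other pairs, Wnt10a rose and Wnt6 was not called, and Wnt9b and Wnt3 were both untested.

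**Figure D2:**
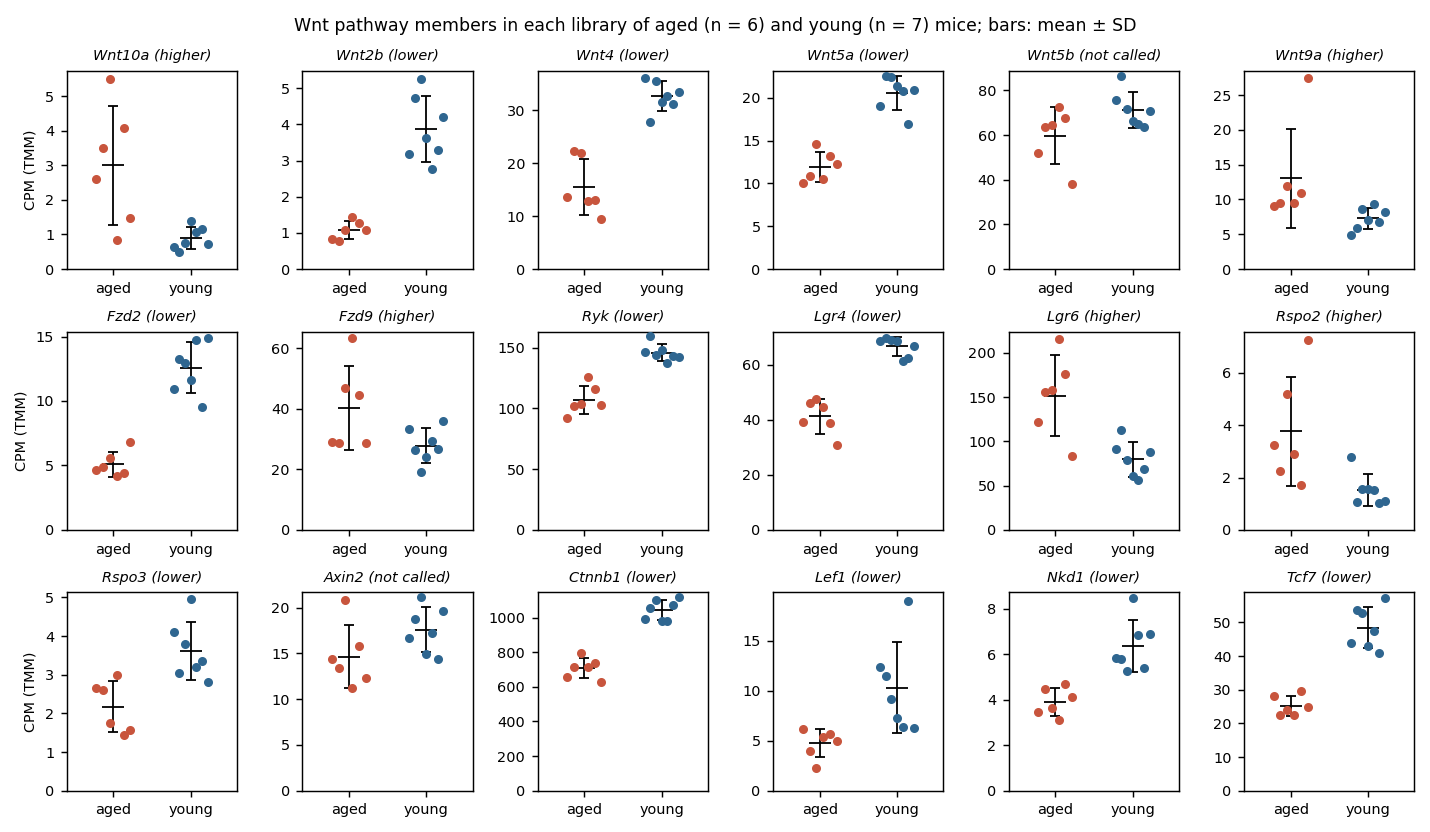
CPM (TMM-normalised, y axis from 0) of 18 members in each aged (red, left) and young (blue, right) library, with mean ± SD (n = 6 and 7). The ages separate without overlap for Wnt2b, Wnt4, Wnt5a, Fzd2, Ryk, Lgr4, Ctnnb1, Lef1, Nkd1 and Tcf7, all lower in aged cartilage.

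The Frizzled receptors split into 3 that rose (30.0%, background 24.7%), 3 that fell (30.0%, background 21.6%) and 4 that were not called. Fzd2 (gene ID 57265), which can carry both beta-catenin and Wnt5a signals, fell most. It was at 4.21 to 6.85 CPM (median 4.76) in aged and 9.55 to 14.9 CPM (median 13) in young libraries, with −1.3 ± 0.14 as its log2 fold change (SE; edgeR adjusted p = 5.67e-06), with no overlap between the ages. Fzd3, known for axon guidance and planar polarity, was at 5.06 to 8.32 CPM (median 7.25) in aged and 11.5 to 15.2 CPM (median 13.2) in young libraries, also without overlap (log2 fold change −0.89 ± 0.11, SE, adjusted p = 2.93e-05). Fzd10 was low, at 0.593 ± 0.295 CPM in aged and 1.29 ± 0.486 CPM in young libraries (SD), with overlap (−1.11 ± 0.34, SE, adjusted p = 0.0148). It reached the level the filter on low counts asks for in 6 young but only 4 aged libraries. The young libraries alone were thus enough for its test, which favours a fall.

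The Frizzleds that rose were among the most abundant ones. Fzd9, a receptor that osteoblasts need for normal bone formation in mice, was the highest Frizzled per length, at 24 ± 7.62 FPKM in aged and 14.5 ± 2.91 FPKM in young libraries (SD, n = 6 and 7). It was at 28.8 to 63.3 CPM (median 36.7) in aged and 19.1 to 35.9 CPM (median 26.6) in young libraries, so that aged replicates 1, 2 and 6 lay within the young range. Its change on the log2 scale, 0.53 ± 0.20 (SE; edgeR adjusted p = 0.0424), was past the threshold with all libraries, and the call was lost without aged replicate 3, 4 or 5 or young replicate 2, 3, 4, 5 or 6 (0.35 to 0.54, adjusted p 0.0585 to 0.116). Fzd8 was closer still to the threshold (0.28 ± 0.11, SE, adjusted p = 0.0499), and its call was lost without aged replicate 2, 3 or 4 or young replicate 2, 3, 4, 5 or 6 (0.20 to 0.30, adjusted p 0.054 to 0.13). Fzd7, a receptor of stem and progenitor cells in other tissues, was at 51.8 ± 6.22 CPM in aged and 40.4 ± 3.01 CPM in young libraries (SD, n = 6 and 7), and its log2 fold change was 0.36 ± 0.079 (SE, adjusted p = 0.00222). That call held with any 1 library left out.

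Fzd1, Fzd4, Fzd5 and Fzd6 were not called. Fzd4, which is also the receptor of the vascular ligand norrin, stood at 0.24 ± 0.14 (log2 fold change, SE), Fzd1 at 0.11 ± 0.15 and Fzd6 at −0.01 ± 0.13. Fzd5 stood at −0.24 ± 0.10 (adjusted p = 0.0693) and was called lower without aged replicate 2 (−0.31) or aged replicate 4 (−0.29).

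With TMM scaling no co-receptor or kinase-like receptor rose (background 24.7%), and 3 of 5 fell (background 21.6%). The difference from these backgrounds was not tested. With only 5 genes, the lack of a rise is not shown to be particular to this role. With library sizes alone, and in limma on log2(FPKM + 1), Lrp6 was called higher, Ryk lower, and Ror1 and Ror2 were not called. Ryk (gene ID 20187), a Wnt receptor with an inactive kinase domain, was at 92.4 to 126 CPM (median 103) in aged and 137 to 160.0 CPM (median 144) in young libraries, with −0.45 ± 0.067 as its log2 fold change (SE; edgeR adjusted p = 0.000126). The ages did not overlap, and the fall is small beside those of Wnt2b or Fzd2. Ror2, the kinase-like receptor of Wnt5a, was at 29.1 ± 5.37 CPM in aged and 39.6 ± 6.27 CPM in young libraries (SD, n = 6 and 7; log2 fold change −0.44 ± 0.13, SE, adjusted p = 0.0107; −0.21 with library sizes alone, adjusted p = 0.165), and Ror1 at 4.47 ± 0.599 CPM and 5.7 ± 0.84 CPM (−0.35 ± 0.12, SE, adjusted p = 0.0316). The call of Ror1 was lost without aged replicate 2, 4 or 5 or young replicate 2, 3 or 6 (−0.34 to −0.28, adjusted p 0.0521 to 0.07). The canonical co-receptors Lrp5 and Lrp6, at 41.8 and 14.5 FPKM in aged and 41.9 and 13 FPKM in young libraries, were not called (log2 fold changes −0.22 ± 0.11 and −0.066 ± 0.059, SE). The sign of Lrp6 turned with library sizes alone (0.16, adjusted p = 0.0135). Lrp5 was called lower without aged replicate 3 (−0.33, adjusted p = 0.00658).

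In the R-spondin axis the receptors Lgr4 and Lgr6 moved in opposite directions. Lgr4 (gene ID 107515) was at 31 to 47.7 CPM (median 41.9) in aged and 61.3 to 69.8 CPM (median 68.8) in young libraries, without overlap, with −0.70 ± 0.087 as its log2 fold change (SE; edgeR adjusted p = 2.49e-05). Lgr6 (gene ID 329252) was at 83.1 to 216 CPM (median 157) in aged and 56.8 to 112 CPM (median 79) in young libraries, with 0.93 ± 0.20 as its log2 fold change (SE; edgeR adjusted p = 0.00223). For Lgr6 5 of the 6 aged libraries lay above every young library, and aged replicate 6 lay within the young range. Lgr5, a stem cell marker in gut and skin, was low and uneven, at 0.17 to 5.61 CPM (median 1.34) in aged and 2.59 to 7.42 CPM (median 4.27) in young libraries. It was not called (−1.34 ± 0.53, SE, adjusted p = 0.0509), and it was called lower without aged replicate 1, its highest aged library (−2.17, adjusted p = 0.000888), or without young replicate 5 (−1.44). The outcome for Lgr5 also depends on the method: it was called lower by DESeq2 (adjusted p = 0.0249), in limma on log2(FPKM + 1), log2(FPKM + 0.1) and log2(TPM + 1), and when the blood marker score (erythroid and neutrophil) was in the fit.

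Set against each other, Lgr6 and Lgr4 separated the ages without overlap. The ratio of Lgr6 to Lgr4, taken from FPKM within a library and so free of the scaling between libraries, was 2.14 to 3.79 (median 2.60) in the aged libraries and 0.670 to 1.28 (median 0.897) in the young ones. This pair was chosen after their values were seen, so the ratio is given without a test.

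**Figure D3:**
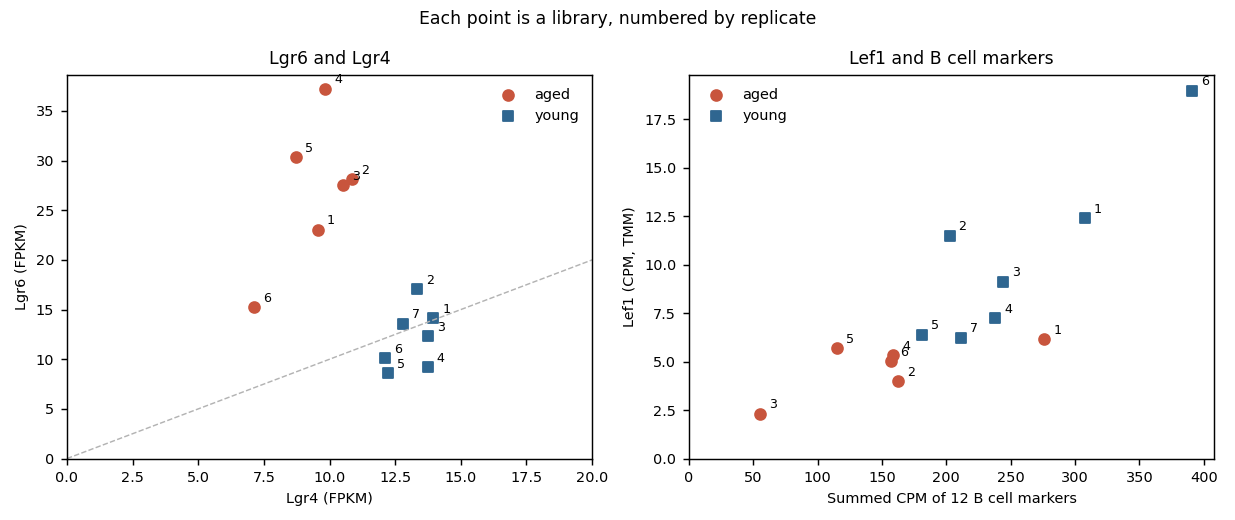
Left, Lgr6 against Lgr4 (FPKM) in each library, with a dashed line at equal levels; right, Lef1 (CPM, TMM-normalised) against the summed CPM of 12 B cell markers. All 6 aged libraries lie above the line for Lgr6 and Lgr4 while the 7 young ones lie around it; the highest Lef1 value and the highest B cell sum both belong to young replicate 6.

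Among the R-spondins, Rspo2, a ligand of limb and lung growth in mice, rose and Rspo3 fell. Rspo2 was at 1.73 to 7.26 CPM (median 3.07) in aged and 1.04 to 2.78 CPM (median 1.5) in young libraries, with 1.3 ± 0.34 as its log2 fold change (SE; edgeR adjusted p = 0.00612); aged replicates 2 and 5 lay within the young range. Rspo3, which placental vessels need in mice, was at 1.45 to 2.99 CPM (median 2.18) in aged and 2.81 to 4.96 CPM (median 3.37) in young libraries, with a slight overlap (−0.73 ± 0.20, SE, adjusted p = 0.00881; −0.50 with library sizes alone, adjusted p = 0.0545). Rspo1 was not called (0.73 ± 0.42, SE), and its log2 fold change was 0.022 without aged replicate 6, where it stood at 5.88 CPM against at most 1.47 CPM in the other aged libraries. Rspo4 was below the filter on low counts, at 0.558 ± 0.431 CPM in aged and 0.0690 ± 0.0646 CPM in young libraries (SD, n = 6 and 7).

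The ubiquitin ligase Rnf43 (gene ID 207742), singled out after its value was seen, had the largest rise of all members. It was at 1.19 to 2.22 CPM (median 1.37) in aged and 0.234 to 0.674 CPM (median 0.442) in young libraries, without overlap, with 1.86 ± 0.26 as its log2 fold change (SE; edgeR adjusted p = 7.65e-05). All 6 aged libraries but only 1 of 7 young ones reached the level the filter on low counts asks for, so Rnf43 entered the test through the aged libraries, which favours a rise. Its relative Znrf3 was at 16.4 ± 2.03 CPM in aged and 16.3 ± 1.14 CPM in young libraries (SD, n = 6 and 7; log2 fold change 0.0044 ± 0.082, SE, not called).

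Of the intracellular and target genes 4 of 7 fell and none rose with TMM scaling (57.1% called, background 46.2%). All 4 separated the ages without overlap. Ctnnb1 (gene ID 12387), which encodes beta-catenin, was the most abundant member. It was at 629 to 798 CPM (median 716) in aged and 978 to 1121 CPM (median 1058) in young libraries, with −0.56 ± 0.07 as its log2 fold change (SE; edgeR adjusted p = 2.79e-05). Tcf7 (gene ID 21414), which encodes the transcription factor TCF1, was at 22.5 to 29.5 CPM (median 24.4) in aged and 41 to 57.1 CPM (median 47.4) in young libraries, with −0.94 ± 0.094 as its log2 fold change (SE; edgeR adjusted p = 3.98e-06). The highest aged library, replicate 5, lay well below the lowest young one, replicate 6. Nkd1, an inhibitor that binds Dishevelled and is itself a Wnt target, was at 3.1 to 4.69 CPM (median 3.88) in aged and 5.26 to 8.46 CPM (median 5.86) in young libraries (−0.70 ± 0.14, SE, adjusted p = 0.00104).

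Lef1 (gene ID 16842), the other TCF/LEF factor among the members, was at 2.32 to 6.16 CPM (median 5.16) in aged and 6.23 to 19 CPM (median 9.12) in young libraries, with −1.11 ± 0.28 as its log2 fold change (SE; edgeR adjusted p = 0.00577). The ages met closely, with the highest aged library just below the lowest young one, and young replicate 6 lay far above the rest; without it the log2 fold change was −0.89 (adjusted p = 0.00954). Lef1 and Tcf7 are also expressed in developing lymphocytes. The 12 B cell markers summed to 55.1 to 276 CPM in aged and 181 to 391 CPM in young libraries, and the libraries with the most Lef1 of each age, aged replicate 1 and young replicate 6, also had the highest B cell sum of their age (276 and 391 CPM), while aged replicate 3 was lowest in both (55.1 CPM). Not every aged library ranked alike in both: aged replicate 5 had 5.69 CPM of Lef1, behind only replicate 1, at a B cell sum of 115 CPM. Aged replicate 2 had 3.98 CPM of Lef1 at a sum of 162 CPM. For Tcf7, young replicate 6 had the lowest value of its age, and aged replicate 5, with the second lowest sum of its age, the highest. Summed T cell markers were at 15.7 to 25.4 CPM in aged and 15.2 to 22.8 CPM in young libraries, but single ones differed: Cd4, the most abundant, fell (8.76 ± 1.71 CPM in aged and 11.4 ± 1.04 CPM in young libraries), Cd8a rose (1.06 ± 0.437 and 0.332 ± 0.188 CPM), and Cd3e, Cd3d and Cd3g, too low to be tested, were higher in every aged library than in any young one (0.724, 0.767 and 0.899 CPM on average in aged and 0.0940, 0.144 and 0.179 CPM in young libraries). The part of these cells in the falls of Lef1 and Tcf7 was not tested.

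Axin2, the feedback target most often used as a readout of the canonical pathway, was not called. It was at 11.2 to 20.8 CPM (median 13.9) in aged and 14.4 to 21.2 CPM (median 17.3) in young libraries, overlapping widely, with −0.26 ± 0.14 as its log2 fold change (SE; edgeR adjusted p = 0.134). Aged replicate 3 lay highest of its age, and without it Axin2 was called lower (−0.39, adjusted p = 0.0116). Its relative Axin1, a scaffold of the destruction complex, was at 52.7 ± 1.78 CPM in aged and 52.1 ± 3.36 CPM in young libraries (SD, n = 6 and 7; log2 fold change 0.017 ± 0.051, SE), and was called higher with library sizes alone (0.25, adjusted p = 0.00180) and in limma on log2(FPKM + 1). Nkd2, a relative of Nkd1, stood at 0.26 ± 0.12 (log2 fold change, SE, adjusted p = 0.0859) and was called higher without aged replicate 3 (0.33, adjusted p = 0.0262), with library sizes alone (0.50, adjusted p = 0.00266) and in limma on FPKM and TPM.

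Beta-catenin acts on DNA through TCF/LEF factors, so the 250 bases before each listed start were searched on both strands for the core sequence that TCF/LEF factors bind, in 4 forms (CTTTGAA or CTTTGAT, and CTTTGTA or CTTTGTT; a window with several matches, overlapping or not, counts once; promoter windows from RefSeq, build GRCm38.p6; 35 of the 50 members had a window). Such a core stood in windows of 4 of the 35 members (11.4%), against 16.8% of all 27025 genes with a window. Member windows were rich in G and C (median 66.8%, against 52.4% for all windows). The members with a core were Lef1, Fzd7, Wnt11 and Wnt5b. A match describes the letters of the window only, and the factors' binding was not measured. The windows of the 2 that were called are printed 5′ to 3′ on the strand of the gene, with the core in capitals; it stands there in its reverse complement. That of Lef1 lies before a start within the gene (chr3:131156044-131156293, plus strand, intronic in the GENCODE vM21 annotation of the same build), and that of Fzd7 before the gene (chr1:59481897-59482146, plus strand, outside annotated exons).
Lef1: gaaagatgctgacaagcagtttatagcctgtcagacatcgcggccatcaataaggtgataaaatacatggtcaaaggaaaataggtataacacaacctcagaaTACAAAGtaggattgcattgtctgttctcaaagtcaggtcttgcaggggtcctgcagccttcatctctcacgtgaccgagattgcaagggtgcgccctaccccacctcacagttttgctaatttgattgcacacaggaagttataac
Fzd7: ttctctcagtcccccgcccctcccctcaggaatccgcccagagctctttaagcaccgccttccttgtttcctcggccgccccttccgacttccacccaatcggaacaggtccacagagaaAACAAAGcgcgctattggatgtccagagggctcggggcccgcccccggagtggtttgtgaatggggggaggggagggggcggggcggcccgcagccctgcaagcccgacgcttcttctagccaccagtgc
In the Lef1 window the core begins 147 bases before the start, and in the Fzd7 window 130 bases before it. Lef1 fell and Fzd7 rose in aged cartilage.

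The make-up of the ligands and receptors, as shares of the FPKM summed within a role, gives the same genes without the scaling between libraries; these shares were not tested. Wnt5b and Wnt10b together made up 70.0 ± 7.13% of ligand FPKM in aged and 69.7 ± 1.54% in young libraries (SD, n = 6 and 7), with the lowest share, 55.6%, in aged replicate 6. Wnt4 took 5.45 ± 1.2% in aged and 10.03 ± 1.16% in young libraries, and Wnt9a 5.91 ± 4.58% and 2.6 ± 0.559%. Among the Frizzleds, Fzd9 took 25.4 ± 6.76% in aged and 20.4 ± 3.37% in young libraries, Fzd1 18.7 ± 5.15% and 19.4 ± 2.56%, and Fzd2 1.81 ± 0.435% and 4.98 ± 0.647%. Of the summed R-spondin axis, Lgr6 held 59.8 ± 8.94% in aged and 38 ± 5.96% in young libraries and Lgr4 21.4 ± 2.19% and 41.8 ± 3.21%.

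**Figure D4:**
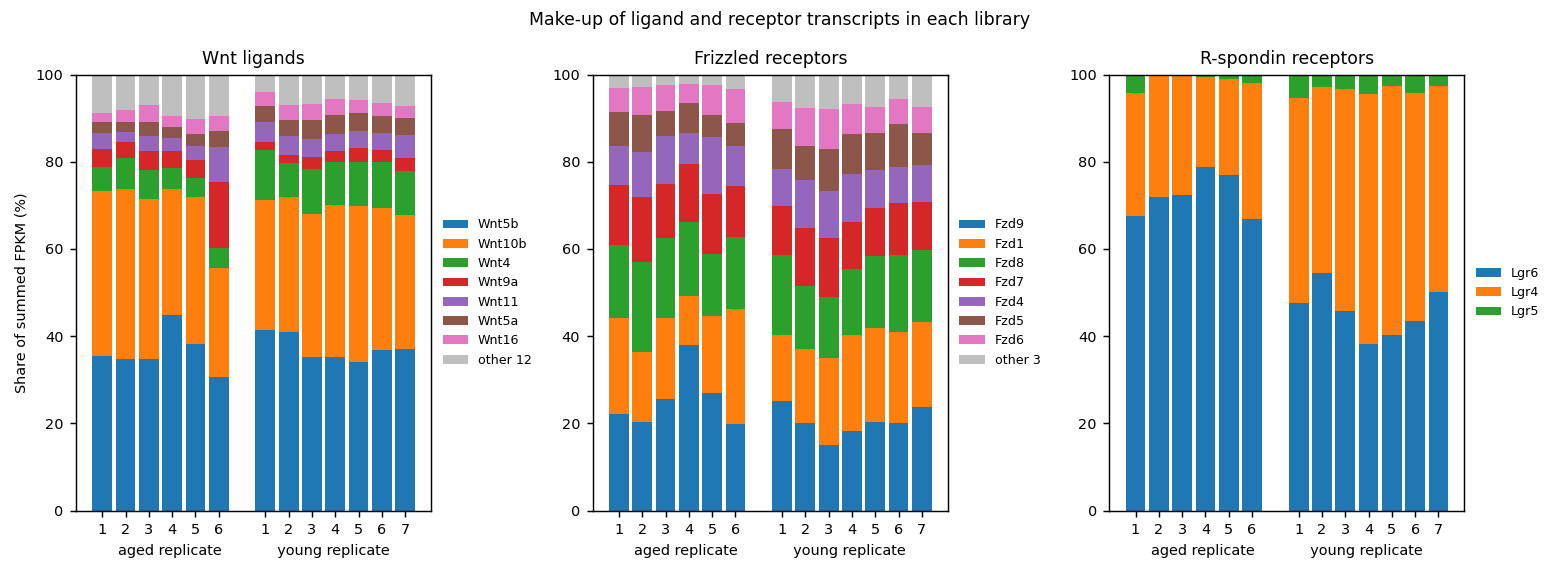
Share of summed FPKM (%, y axis) taken by each ligand (left), Frizzled (middle) and R-spondin receptor (right) in each aged and young library. Wnt5b and Wnt10b lead the ligands at both ages, and Lgr6 takes a larger share of the R-spondin receptors in every aged library than in any young one.

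The rest of the pathway was read from 6 lists of 86 other genes, 82 of them tested. Of these 13 rose (15.9%) and 37 fell (45.1%), beside the backgrounds of 24.7% and 21.6% given above, at a median log2 fold change of −0.18. With library sizes alone 23 rose and 21 fell, beside 7034 and 1253 of all 14067 tested genes. With the erythroid and neutrophil score in the fit 8 rose and 10 fell, beside 1310 and 1093 of all tested genes. The genes named from these lists are the called ones with the largest change in each direction. Nuclear effectors fell in 9 of 14 cases and rose in 1 (71.4% called, background 46.2%). Tcf7l2, a further TCF factor that can partner beta-catenin, stood at −0.83 ± 0.11 (SE, adjusted p = 3.79e-05) and Tle5 at 0.29 ± 0.10. In the destruction complex and signal relay 11 of 21 genes fell and 2 rose (61.9% called). The largest fall there was that of the Dishevelled-binding protein Dact1 (−0.85 ± 0.097, SE, adjusted p = 1.17e-05), and Btrc, part of the ligase that marks beta-catenin for destruction, rose (0.41 ± 0.075, adjusted p = 0.000564).

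Outside the cell, 6 of 13 secreted antagonists and their partners fell and 4 rose (76.9% called, background 46.2%). Dkk2, which binds Lrp5 and Lrp6, stood at −1.69 ± 0.16 (SE) and the secreted Frizzled-related protein Sfrp4 at 1.15 ± 0.17 (adjusted p = 2.28e-06 and 0.00014). Of the 11 genes for ligand processing and cofactors 5 fell, with the glypican Gpc3 at −1.07 ± 0.19, and 1 rose (54.5% called). The 1 that rose was Trabd2b, which encodes a protease that inactivates Wnts, at 0.82 ± 0.15 (SE, adjusted p = 0.000588). Planar polarity genes fell in 4 of 14 cases (28.6%, background 21.6%) and rose in 3 (21.4%, background 24.7%). The 7 called of these 14 genes lie near the background of 46.2%. Vangl2 stood at −0.76 ± 0.095 and the cadherin Celsr3 at 1.83 ± 0.43 (SE). Of 9 other reported targets 2 fell and 2 rose (44.4% called, also near that background). Bambi, a decoy receptor of the TGF-beta family, stood at −1.17 ± 0.14 and Tnfrsf11b, which encodes the osteoclast inhibitor osteoprotegerin, at 1.81 ± 0.28 (SE, adjusted p = 1.82e-05 and 0.000184).

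**Figure D5:**
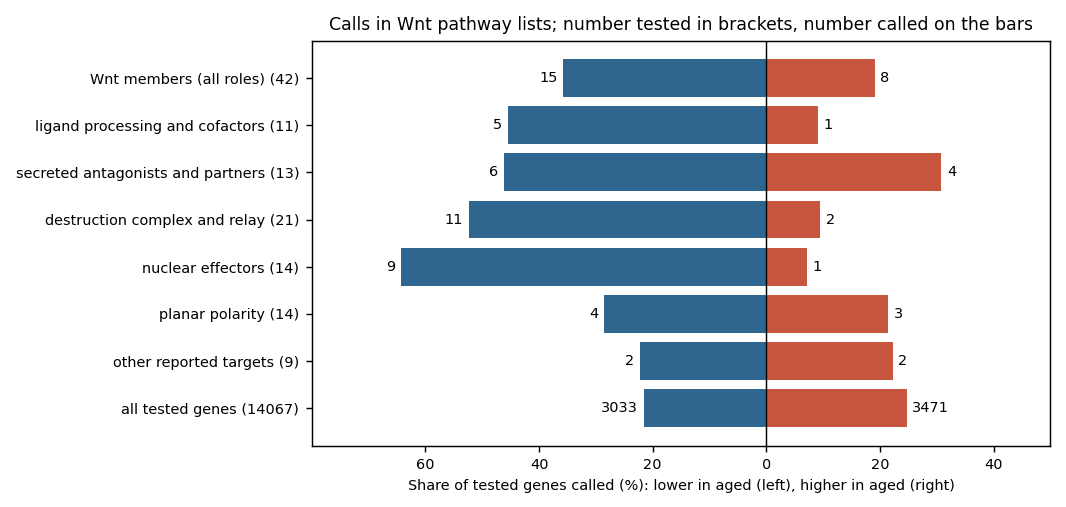
Share of tested genes called lower (blue, left) or higher (red, right) in aged cartilage for the 42 members, 6 lists of other pathway genes and all 14067 tested genes (x axis: percent; numbers on the bars: genes called). Nuclear effectors and the destruction complex have the longest bars to the left, at 9 of 14 and 11 of 21 genes.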

How the data were processed

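Tissue RNA was prepared with TRIzol, per the labels' protocols, captured on oligo(dT) beads and read from both ends on the DNBSEQ platform with a kit that keeps the strand. The submitters' processing notes name build GRCm39 and, without their roles, RSEM 1.3.1, DESeq2 1.4.5, Bowtie2 2.3.4.3 and HISAT2 2.1.0; for the gene annotation no version is given in the sources used here. The authors deposited expected counts, of which 5.3% were not whole, and FPKM and TPM, both of which they normalised by gene length and depth (per the file headers).

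Expected counts were rounded and tested with edgeR 4.0.16 in R 4.3.3 (filterByExpr with minimum count 10 and minimum total count 15, TMM, robust quasi-likelihood test of aged against young in all 13 libraries, Benjamini-Hochberg adjustment over 14067 genes, threshold 0.05). The SE is the log2 fold change divided by the square root of F. Marker scores are standardised means of log2 CPM (prior count 2). Alternatives were other scalings and filters, limma 3.58.1 on log2(FPKM + 1), log2(FPKM + 0.1) and log2(TPM + 1), DESeq2 1.42.0, marker scores of 2 kinds as covariates, a block for replicate number, and leaving out every library in turn. Simulated data with known changes were used to test the scripts. Libraries of 1 age all differed by more than sampling noise (smallest chi-square per degree of freedom 10.1). Expected counts came to between 16356839 and 18203443 per library.

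All 50 members were matched by gene ID in RefSeq tables of build GRCm38.p6, another build than the authors', used for names, neighbours and promoter windows only. Members, lists and tests were chosen with earlier results of these data known. Values in every library are summarised for the 16 called members with the largest change and a mean FPKM of at least 1 at either age, the most abundant member of each role, and Axin2, Lef1, Tcf7, Ctnnb1 and Wnt5a. Every other member is named with its result. From each pathway list the largest called change in each direction is named. Python 3.11.15 with matplotlib 3.10.9 drew the figures.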

Additional observations from a re-analysis of the deposited data

Results flagged for a closer look

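In 36 groups of libraries (18 members, each at 2 ages), 2 held a library far from the rest of its group by Dixon's test at the 95% level, where chance flags about 1 group in 20. For Wnt9a, aged replicate 6 stood at 27.4 CPM and the next highest aged library at 11.9 CPM. For Rspo2, young replicate 1 stood at 2.78 CPM and the next highest young library at 1.58 CPM. The log2 fold change of Rspo2 was 1.51 without that library and 1.3 with it, and both were called.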

How the results depend on the processing

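With 1 library left out in turn, 6 to 8 members were called higher and 14 to 17 lower (8 and 15 with all libraries), and 20 of the 23 calls held in all 13 such fits; the exceptions were Fzd8, Fzd9 and Ror1. Of 450 values of 18 members under the alternatives, which include the 13 fits with 1 library left out, 418 kept their direction and their side of the threshold. With the blood marker score as a covariate only 5 of the 18 did so, and with the skeletal muscle score 12. Among these 18 the direction turned for Wnt5b (0.12) and Axin2 (0.43), both uncalled, when the blood marker score (erythroid and neutrophil) was in the fit. Of the other tested members, Axin1, Fzd6, Lrp5, Rspo1, Wnt10b and Wnt16 turned with that score. Fzd4, Wnt1, Wnt6, Wnt7b and Znrf3 turned with the muscle score. None of these was called without a score, and the cause was not tested. Scaling by library sizes alone gave 13 higher members, 23 higher genes in the rest of the pathway and 7034 in the whole table, with 21 and 1253 lower in the last 2 groups. On log2(FPKM + 1) the numbers were 21 and 6227 higher and 21 and 1369 lower, and on log2(FPKM + 0.1) 21 and 6230 higher and 21 and 1370 lower. The blood marker score gave 4, 8 and 1310 higher and 4, 10 and 1093 lower. With the muscle score 3, 5 and 1873 were called higher, and 1658 of all genes lower. Without these changes 13 and 3471 were higher and 37 and 3033 lower. Without a filter on low counts Rspo4 and Wnt2 were also called and Fzd9 and Fzd8 were not. The labels do not say that replicate numbers pair the libraries, and not every pair correlated: deviations of same-numbered libraries correlated at 0.111 to 0.258 in 5 pairs and at −0.12 in replicate 4, and 4 of 12 libraries correlated best with their own number. With the number as a replicate block 6 members were called higher and 17 lower, and without the block in the same 12 libraries, a fit added after the data were seen, 8 and 15. Axin2 stood at −0.25 with the block (adjusted p = 0.0405) and Lgr5 at −1.77 (adjusted p = 0.0164), both then called; Fzd9 at 0.55 (adjusted p = 0.0848) and Fzd8 at 0.30 (adjusted p = 0.123) were not. Members at a few CPM or below, such as Wnt10a, Wnt2b, Fzd10 and Rnf43, rest on few reads per library.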

Other observations

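Members varied more between aged than between young libraries. The median coefficient of variation of the 42 tested members was 23.6% in aged and 14.9% in young libraries, and it was larger in aged libraries for 35 of them. The difference was not tested. The same comparison was not made over all tested genes, so the spread is not shown to be particular to the members.

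A few libraries supplied most of the extremes within the aged group. Aged replicate 4 was the highest or lowest aged library for 23 members, aged replicate 6 for 21 and aged replicate 3 for 18, and each of the other aged libraries for 5 to 9. Aged replicate 6 had the most Wnt9a, Wnt11, Wnt7b, Rspo1, Rspo2 and Nkd2 of its age and the least Wnt4, Wnt5b, Wnt10b, Lgr4, Lgr6 and Ctnnb1. In aged replicate 4 Lgr6, Fzd9 and Rnf43 were highest and Tcf7, Axin2 and Nkd1 lowest, and the 10 chondrocyte markers summed to 27289 CPM there, the highest of the aged libraries.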
